A study of Mus musculus with 6 samples.

Results

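The Toll-like receptor genes were followed in 6 mouse neurofibromas, which are benign nerve sheath tumours, by RNA sequencing. The 10 receptors are Tlr1 to Tlr9 and Tlr13, and all 10 were found by symbol among the 24421 rows of the deposited count table. All mice were on a C57BL/6J background, and every tumour was a neurofibroma labelled Nf1fl/fl; DhhCre, in which Cre driven by the Dhh promoter removes Nf1, a negative regulator of Ras, in Schwann lineage cells and the other cells of the tumour keep it. The 3 tumours MiRNC149, MiRNC640 and MiRNC670 also carried a Mir-155 knockout (group miR155KO_Nf1KO), and the 3 tumours Nf803, Nf809 and Nf827 did not (group Nf1KO). No drug was given, and the age of the animals and the cells in which miR-155 was deleted are not stated in the labels. The declared purpose of the series was to look for targets of the microRNA miR-155 among the expression differences. The labels do not say that each tumour came from a separate animal, so the p-values below measure the spread between these samples.

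Toll-like receptors are membrane proteins that sense microbial molecules and signal through a cytoplasmic domain to NF-kB and interferon regulatory factors. Tlr1, Tlr2, Tlr4, Tlr5 and Tlr6 act mainly at the cell surface on lipids and proteins, and Tlr3, Tlr7, Tlr8, Tlr9 and Tlr13 act in endosomes on nucleic acids. Macrophages and dendritic cells express most of them, B cells and plasmacytoid dendritic cells express Tlr7 and Tlr9, and stromal cells can express Tlr3 and Tlr4. Their activation induces miR-155 in macrophages, and several proteins of the pathway are known from the literature as miR-155 targets.

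Libraries held 13061129 to 16333181 reads, and values are given as CPM, counts per 1e6 reads of a library after TMM scaling for its composition. Mir155hg, the host transcript of miR-155, had 5, 3 and 1 reads in the miR155KO_Nf1KO tumours and 57, 66 and 71 in the Nf1KO tumours, although the labels do not say which part of the gene was deleted. By Xist and Y-linked reads, tumours MiRNC149, Nf803 and Nf827 were female and the other 3 were male. Skeletal muscle transcripts were high in tumours MiRNC670 and Nf809 (2190 and 2404 CPM summed over 8 markers, against 8.84 to 397 in the others). Markers of Schwann cells were present in every tumour, at 3953 to 5949 CPM summed over 9 genes.

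The series asks which transcripts miR-155 might act on, so the seed of the microRNA was searched first in the 3′ UTRs of the receptors and of their pathway. The mature miR-155-5p (RefSeq, GRCm38.p6, chr16:84714143-84714165, plus strand) is shown with its seed, bases 2 to 8, in capitals. The sites below it are those of the pathway genes Inpp5d, Tab2, Rela, Socs1 and Ikbke, with the bases that pair with the seed, or with the seed and the adenosine opposite base 1, in capitals.
miR-155-5p: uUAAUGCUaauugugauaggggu
Inpp5d: gtttttaaaaAGCATTAAagaaaaccat
Tab2: taaggtagaaAGCATTAAtgaaatgaaa
Rela: ctttcgcaggAGCATTAAcctcctggag
Socs1: gctgtgccgcAGCATTAAgtgggggcgc
Ikbke: ccaacaaactAGCATTActttgactgt

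None of the 10 receptors held a match. For every gene the longest 3′ UTR annotated by GENCODE M21 (GRCm38) was searched on the transcript strand for the 8-base site AGCATTAA, which contains the 7-base sites AGCATTA and GCATTAA, and for either of these alone. Over all 19514 genes of the table with such a UTR, 12.8% held at least 1 match and 3.13% the 8-base site. Several receptor UTRs are short, from 58 bases in Tlr8 to 1496 in Tlr3. Of 97 pathway genes with a UTR, 12 held a match (12.4%). The sites shown lie at chr1:87719838-87719845 in Inpp5d, chr10:7906691-7906698 in Tab2, chr19:5647587-5647594 in Rela, chr16:10784206-10784213 in Socs1 and chr1:131255153-131255159 in Ikbke. A match in letters is not evidence of binding, and its absence says only that these letters are not in the annotated UTR.

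Receptor transcripts were lower in the tumours without miR-155. Of the 10 receptors, 9 had a negative log2 fold change, and 4 passed the test across all genes, all of them lower: Tlr1, Tlr2, Tlr3 and Tlr8. The test was edgeR's quasi-likelihood test, two-sided, at a Benjamini-Hochberg adjusted p under 0.05 over 15604 genes, and it called 9.96% of all genes, 4.74% lower and 5.22% higher. Negative fold changes made up 49.5% of all genes. A log2 fold change of -1 or lower was found for 8 of the 10 receptors and for 8.44% of all genes. The median log2 fold change of the 10 receptors was -1.48, and that of all genes tested was 0.01. For 7 receptors the 3 values of a group did not overlap with those of the other, with the knockout tumours lower in all 7, and groups were apart for 32.6% of all genes and for 16.3% in this direction. Tlr4, Tlr5 and Tlr7 overlapped. Summed over the receptors, the level was 229, 126 and 132 CPM in tumours MiRNC149, MiRNC640 and MiRNC670, and 378, 298 and 500.0 CPM in tumours Nf803, Nf809 and Nf827.

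**Figure D1:**
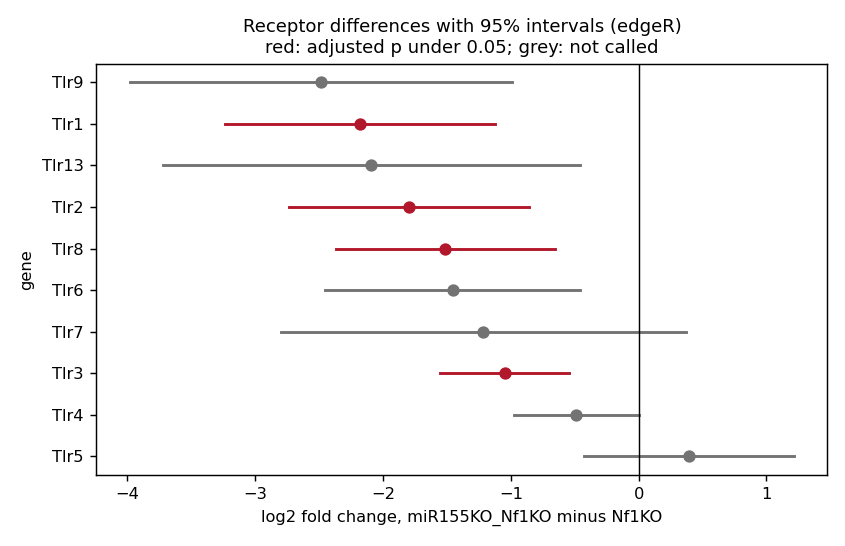
Log2 fold change of each receptor, miR155KO_Nf1KO minus Nf1KO, with its 95% interval from edgeR (horizontal axis) for the 10 receptors (vertical axis, ordered by fold change). Red marks the 4 receptors with an adjusted p under 0.05 and grey the others, and Tlr5 is the 1 receptor to the right of 0.

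**Figure D2:**
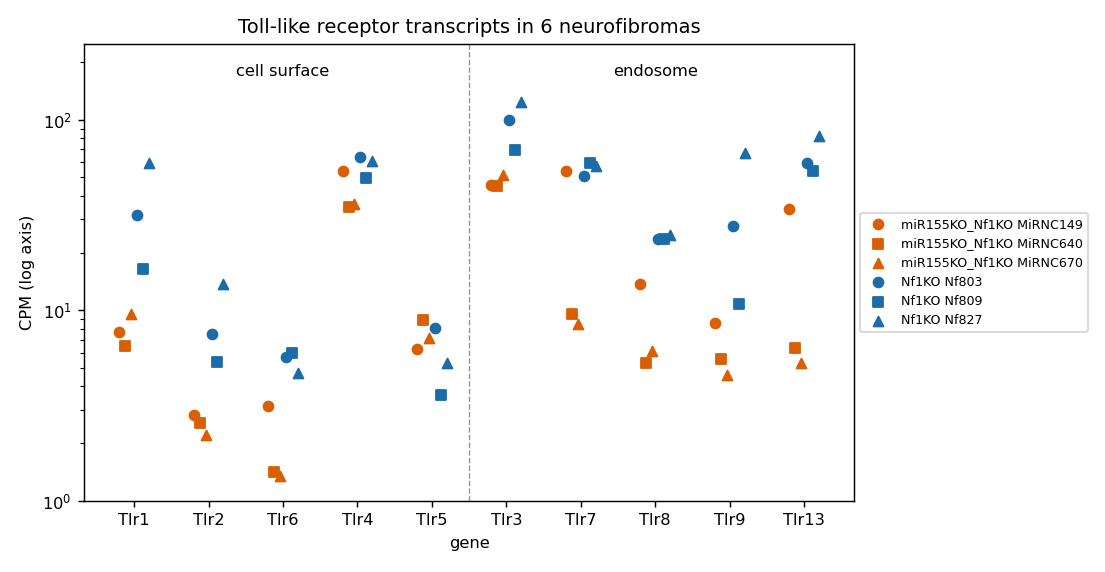
Receptor level in CPM on a log axis, 1 point per tumour, for the surface receptors (left) and the endosomal receptors (right). Orange points are the miR155KO_Nf1KO tumours and blue points the Nf1KO tumours, and the orange circle of tumour MiRNC149 lies among the blue points for Tlr7.

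The calls depended on single tumours. Without tumour MiRNC640, MiRNC670, Nf803 or Nf827 edgeR called 0 of the 10 receptors, and 142, 0, 0 and 0 genes in all. In each of these fits 7 of the 10 receptors had an unadjusted p under 0.05. So did 3403 of 16018, 3240 of 16025, 3335 of 16072 and 3265 of 16056 genes tested, in the same order. Without tumour MiRNC149 edgeR called 4 receptors, but Tlr8 was the only one of them called with all tumours: Tlr6, Tlr7 and Tlr13 were gained, and Tlr1 (adjusted p = 0.0648), Tlr2 (0.0663) and Tlr3 (0.0639) were lost. Without tumour Nf809 Tlr9 was gained and Tlr8 was lost (edgeR adjusted p = 0.0529). DESeq2 called 6 of the 10 receptors and 8.29% of all genes lower with all tumours. With 1 tumour left out it called 5 to 9 receptors lower, beside 904 of 16522 to 1573 of 17301 genes lower. The count of 9 was that without tumour MiRNC149, beside 1556 of 16479 genes lower.

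Tlr2 and its partners Tlr1 and Tlr6 form heterodimers that recognise bacterial lipoproteins. Tlr1 (ENSMUSG00000044827.10, chromosome 5, 64924679 to 64933563, minus strand) was at 7.73, 6.48 and 9.50 CPM in tumours MiRNC149, MiRNC640 and MiRNC670, and at 31.5, 16.5 and 59.3 CPM in tumours Nf803, Nf809 and Nf827. All the knockout tumours lay close together and under the lowest Nf1KO tumour, whereas the Nf1KO tumours were spread widely with Nf827 highest. The group means were 7.91 ± 1.52 and 35.8 ± 21.7 CPM (SD, n = 3 each), and Tlr1 fell by 2.18 on the log2 scale (SE 0.45, edgeR adjusted p = 0.0313).

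Tlr2 (ENSMUSG00000027995.10, chromosome 3, 83836272 to 83841767, minus strand) had 44, 38 and 28 reads in the knockout tumours, or 2.83, 2.57 and 2.22 CPM, and 104, 87 and 204 reads in the Nf1KO tumours, or 7.55, 5.38 and 13.7 CPM. The order of the Nf1KO tumours was that of Tlr1, with Nf827 highest and Nf809 lowest. Tlr2 fell by 1.80 on the log2 scale (SE 0.40, edgeR adjusted p = 0.0374). Tlr6 (ENSMUSG00000051498.6, chromosome 5, 64952031 to 64960097, minus strand), which lies next to Tlr1, had only 49, 21 and 17 reads in the knockout tumours and 78, 97 and 70 in the Nf1KO tumours. Its groups did not overlap (1.97 ± 1.02 against 5.45 ± 0.68 CPM, SD, n = 3 each), but it missed the threshold with a log2 fold change of -1.46 (SE 0.42, edgeR adjusted p = 0.074) and passed it without tumour MiRNC149 (-1.96, edgeR adjusted p = 0.0354). Unlike Tlr1 and Tlr2, Tlr6 was highest in tumour Nf809. Tlr1 and Tlr6 are close copies: 18.3% of the 31-base words of the Tlr1 transcripts also occur in Tlr6, and no other pair of the 10 receptors shared a word, so the split of reads between these 2 genes is uncertain.

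Tlr4, the receptor for lipopolysaccharide, and Tlr5, the receptor for bacterial flagellin, were not called. Tlr4 (ENSMUSG00000039005.13, chromosome 4, 66827584 to 66930284, plus strand) was at 53.6, 34.7 and 36.1 CPM in tumours MiRNC149, MiRNC640 and MiRNC670, and at 64.1, 49.7 and 60.9 CPM in tumours Nf803, Nf809 and Nf827. Tumour MiRNC149 reached above tumour Nf809. The log2 fold change was -0.49 (SE 0.21, 95% interval -0.98 to 0.00, edgeR adjusted p = 0.19). Tlr5 (ENSMUSG00000079164.8, chromosome 1, 182954788 to 182976044, plus strand) was at 6.25, 8.85 and 7.13 CPM in the knockout tumours and at 8.06, 3.59 and 5.29 CPM in the Nf1KO tumours, the 1 receptor with a positive log2 fold change (0.39, SE 0.35, edgeR adjusted p = 0.531). Its 95% interval, -0.43 to 1.22, includes 0.

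Tlr3 senses double-stranded RNA and signals through Ticam1 rather than Myd88. Tlr3 (ENSMUSG00000031639.12, chromosome 8, 45395665 to 45411080, minus strand) counted 706, 665 and 650 reads among the knockout tumours, in the same tumour order as before, and 1378, 1122 and 1855 among the Nf1KO tumours. The groups did not overlap. It varied little among the knockout tumours (47.3 ± 3.65 CPM, SD, n = 3) and more among the Nf1KO tumours (97.9 ± 27.5 CPM, SD, n = 3). Tlr3 fell by 1.05 on the log2 scale (SE 0.22, edgeR adjusted p = 0.031), a level 2.07 times higher in Nf1KO. Its exons overlap an antisense gene over 381 bases, and the strand setting of the counting is not given in the sources used here.

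Tlr9, the receptor for unmethylated CpG DNA, had the most negative log2 fold change of the 10 receptors and varied widely among the Nf1KO tumours. Tlr9 (ENSMUSG00000045322.10, chromosome 9, 106222598 to 106226883, plus strand) was at 8.63, 5.54 and 4.59 CPM in tumours MiRNC149, MiRNC640 and MiRNC670, and at 27.6, 10.8 and 67.3 CPM in tumours Nf803, Nf809 and Nf827. The groups did not overlap, although tumour Nf809 stood nearer to the knockout tumours than to the other Nf1KO tumours. The log2 fold change was -2.49 (SE 0.64), which missed the threshold by edgeR (adjusted p = 0.0525). It was -2.91 and passed by edgeR without tumour Nf809 (adjusted p = 0.00862), and it was -1.61 without tumour Nf827 (edgeR adjusted p = 0.121).

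Tlr7, Tlr8 and Tlr13 lie on the X chromosome and sense RNA: Tlr7 and Tlr8 are neighbouring receptors for single-stranded RNA and its breakdown products, and Tlr13, which humans lack, binds bacterial ribosomal RNA. Tlr7 (ENSMUSG00000044583.13, 167304929 to 167330558, minus strand) was at 53.8, 9.59 and 8.48 CPM in tumours MiRNC149, MiRNC640 and MiRNC670, and at 50.5, 59.3 and 57.2 CPM in tumours Nf803, Nf809 and Nf827. Tumour MiRNC149 thus lay inside the narrow range of the Nf1KO tumours, 5.95 times above the mean of the other 2 knockout tumours. The log2 fold change was -1.21 (SE 0.68, edgeR adjusted p = 0.304) with all tumours and -2.61 without MiRNC149 (edgeR adjusted p = 0.0115).

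Tlr13 (ENSMUSG00000033777.4, 106143204 to 106160493, plus strand) shared this pattern, at 34.1, 6.35 and 5.31 CPM in the knockout tumours and 59.5, 53.7 and 82.6 CPM in the Nf1KO tumours. Tumour MiRNC149 was 5.86 times above the other 2 knockout tumours but under every Nf1KO tumour. The log2 fold change was -2.09 (SE 0.70, edgeR adjusted p = 0.105), and -3.47 without MiRNC149 (edgeR adjusted p = 0.0122). Tlr8 (ENSMUSG00000040522.5, 167242696 to 167264329, minus strand) was at 13.8, 5.27 and 6.10 CPM in the knockout tumours and at 23.6, 23.6 and 24.8 CPM in the Nf1KO tumours, which were nearly equal. Tlr8 fell by 1.51 on the log2 scale (SE 0.37, edgeR adjusted p = 0.0445), and tumour MiRNC149 was again the highest of its group, by 2.42 times.

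**Figure D3:**
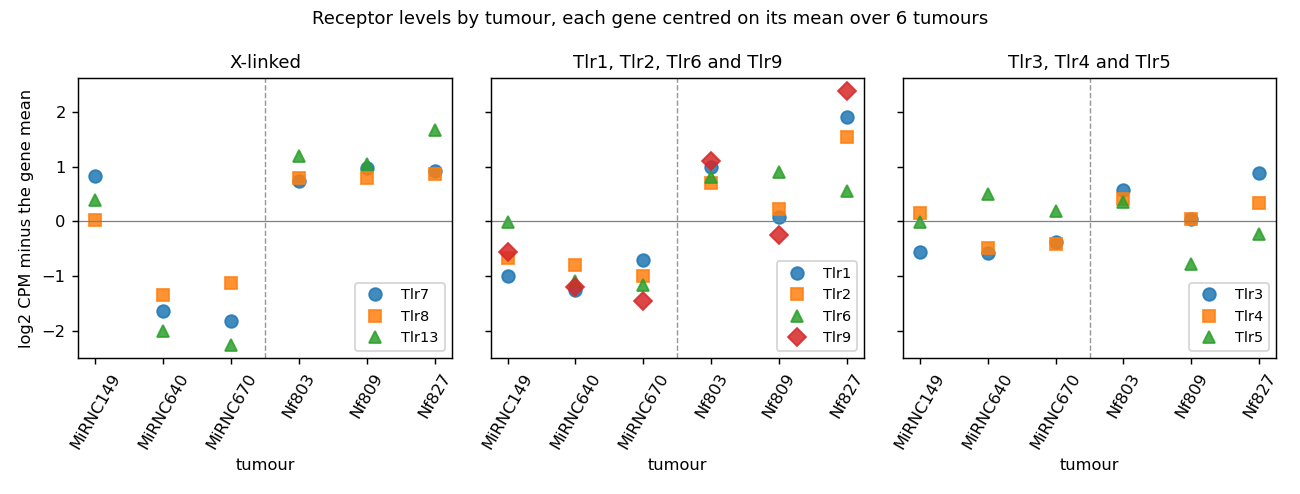
Log2 CPM of each receptor minus its mean over the 6 tumours (vertical axis), by tumour (horizontal axis, knockout tumours left of the dashed line), in 3 panels of receptors. Tumour MiRNC149 lies above 0 for Tlr4, Tlr7 and Tlr13, close to 0 for Tlr5, Tlr6 and Tlr8 (0.02 for Tlr8), and below 0 for the others. Tumour Nf827 is highest for Tlr1, Tlr2, Tlr3, Tlr8, Tlr9 and Tlr13.

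Other values moved with these receptors in tumour MiRNC149. It was the only female knockout tumour, and its summed macrophage markers were 2.01 times the mean of the other 2 knockout tumours, a smaller gap than for Tlr7 and Tlr13, while its Tlr1 and Tlr3 levels were 0.966 and 0.943 times theirs. Among females Tlr7 was at 53.8 CPM in the knockout tumour and at a mean of 53.8 CPM in the 2 Nf1KO tumours, and among males at a mean of 9.03 CPM in the 2 knockout tumours and at 59.3 CPM in the Nf1KO tumour. Among males Tlr13 was at 5.83 against 53.7 CPM and Tlr8 at 5.68 against 23.6 CPM, and among females at 34.1 against 71.1 and 13.8 against 24.2 CPM. Since 1 knockout tumour was female, sex and any other property of that tumour cannot be told apart. With sex as a covariate in edgeR, Tlr8 (-1.42, adjusted p = 0.0423) and Tlr13 (-2.10, adjusted p = 0.0471) were called, and Tlr1 (-1.80, adjusted p = 0.0697), Tlr2 (-1.53, adjusted p = 0.0708) and Tlr3 (-0.91, adjusted p = 0.0625) were not.

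Within a tumour the balance between the receptors differed. The reads of Tlr7 per read of Tlr9 were 6.23, 1.73 and 1.84 in tumours MiRNC149, MiRNC640 and MiRNC670, and 1.83, 5.51 and 0.851 in tumours Nf803, Nf809 and Nf827. The ratio was therefore high in 1 tumour of each group, and the groups overlapped. Tlr9 per read of Tlr4 was 0.161, 0.16 and 0.127 in the knockout tumours and 0.43, 0.216 and 1.11 in the Nf1KO tumours, which did not overlap. Tlr7 per read of Tlr13 did not overlap either, at 1.58, 1.51 and 1.6 in the knockout tumours and 0.848, 1.1 and 0.693 in the Nf1KO tumours. The groups overlapped for the other 5 of the 7 ratios computed, and none of the ratios was tested. The share of all gene pairs apart by group was not computed. The ratios that were apart are therefore not read as a result about the receptors. Of all pairs of receptors, Tlr6 and Tlr8 had the most similar profiles over the 6 tumours, with a root mean square difference of 0.17 in centred log2 CPM, followed by Tlr1 and Tlr2 (0.33).

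Levels were compared between receptors only per length, as CPM per kilobase of the union of a gene's exons in GENCODE M21, which may not be the annotation the authors counted on. In Nf1KO the order by mean was Tlr3 (18.8 ± 5.27 CPM per kilobase, SD, n = 3), Tlr13 (15.1 ± 3.55), Tlr7 (13.6 ± 1.13), Tlr1 (10.7 ± 6.48), Tlr4 (10.5 ± 1.36), Tlr9 (10.1 ± 8.33), Tlr8 (6.68 ± 0.20), Tlr2 (2.94 ± 1.42), Tlr6 (1.46 ± 0.18) and Tlr5 (1.18 ± 0.47). With the length of the longest transcript in place of the exon union, Tlr4 (14.3 CPM per kilobase) moved up to the level of Tlr7 (14.3), above Tlr1 (11.8) and Tlr9 (10.1). Neighbours from Tlr3 to Tlr8 overlapped in their ranges, as did Tlr6 and Tlr5, whereas Tlr8 lay above Tlr2 in every Nf1KO tumour and Tlr2 above Tlr6. In miR155KO_Nf1KO the highest means were those of Tlr3 (9.07 ± 0.70) and Tlr4 (7.46 ± 1.90), and Tlr7 (5.86 ± 6.32) and Tlr13 (3.54 ± 3.79) were spread by tumour MiRNC149. Tlr6 was the lowest, at 0.53 ± 0.27 CPM per kilobase.

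Several lists of leukocyte markers, though not all, were lower in the same tumours as the receptors. The counts below stand beside the 4.74% of all genes called lower and 5.22% called higher by edgeR. Of 15 macrophage markers 8 fell, the median log2 fold change was -1.68, none was at 0, and the summed level was 603 to 1284 CPM in miR155KO_Nf1KO and 1663 to 2985 CPM in Nf1KO. Of 10 tested conventional dendritic cell markers 7 fell, with sums of 643 to 1115 against 2052 to 8934 CPM. Most of these sums came from Cd74 and H2-Ab1, genes of antigen presentation. Cd74 was at 427 to 789 against 1370 to 6280 CPM, and H2-Ab1 at 142 to 226 against 441 to 2103 CPM. Zbtb46 had a log2 fold change of -0.15 and was not called (edgeR adjusted p = 0.794). Ptprc, the leukocyte antigen CD45, was at 40.5 to 74.8 CPM against 172 to 586 CPM. Mast cell sums overlapped between the groups (76.9 to 86.0 against 48.8 to 98.8 CPM, 0 of 7 markers called). Neutrophil sums overlapped as well (15.3 to 65.8 against 40.8 to 155.5 CPM, 1 of 7 lower). The sums of T cell, NK cell and eosinophil markers were lower in the knockout tumours without overlap. Among tested markers edgeR called 0 of 5, 1 of 6 and 2 of 4 lower, and DESeq2 called 3, 2 and 3. The NK cell marker called by edgeR was Klrd1. It had 10, 6 and 8 reads in the knockout tumours and 128, 159 and 243 in the Nf1KO tumours. Gzma and Prf1 of the same list went the other way (log2 fold change 0.44 and 0.46) and were not called. Whether the NK cell sums stay apart without Klrd1 was not tested. Of 5 tested B cell markers 0 were called by edgeR or DESeq2. For 1 of them the unadjusted edgeR p was under 0.05, beside 4163 of all 15604 genes. B cell marker sums were 17.8 to 26.7 against 16.1 to 42.7 CPM. The defining genes Ms4a1 and Pax5 had 44 and 13 reads in tumour Nf827 and at most 10 and 3 elsewhere. Of 6 tested plasmacytoid dendritic cell markers 2 fell, with sums of 311 to 387 against 509 to 590 CPM. Most of these sums came from Tcf4 alone, at 271 to 334 against 456 to 528 CPM. Siglech and Ccr9 overlapped between the groups and were not called. Pacsin1 went the other way (log2 fold change 1.70) and was not called (edgeR adjusted p = 0.0658). Of 8 fibroblast markers 3 fell, with sums of 4770 to 6086 against 9862 to 10540 CPM. Neuron and myelin markers moved the other way, with 7 of 10 and 7 of 8 higher. The part of these cell types in the receptor differences was not tested beyond the ratios below. In bulk tumours, fewer cells of a type and less RNA per cell cannot be told apart.

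Set against macrophage marker reads, most of the receptor differences were no longer separated by group. Each receptor was expressed as reads per 1000 reads of the 15 macrophage markers in the same tumour. Among these markers Lyz2, Mertk and Cd163 (log2 fold change -0.38, 0.38 and -0.72) overlapped between the groups and were not called. Lyz2 and Mertk held 2075 and 1718 of the 8933 marker reads in tumour MiRNC640, and 3566 and 1402 of 29802 in tumour Nf803. The part of Lyz2 and Mertk was larger in every knockout tumour than in any Nf1KO tumour, so the reference differed in make-up between the groups. Tlr1 was at 6.02, 10.8 and 14.1 in the knockout tumours and 14.6, 9.92 and 19.9 in the Nf1KO tumours, and Tlr8 at 10.7, 8.73 and 9.06 against 10.9, 14.2 and 8.32. The groups overlapped for 7 receptors and were apart for 3. Tlr4 was higher relative to macrophage markers in the knockout tumours (41.8, 57.5 and 53.7 against 29.6, 29.9 and 20.4), as was Tlr5 (4.86, 14.7 and 10.6 against 3.73, 2.16 and 1.77). Tlr13 was lower (26.6, 10.5 and 7.89 against 27.5, 32.3 and 27.7). The exact two-sided permutation test gave p = 0.1 for each of these 3, the smallest that 3 against 3 tumours allow, and 0.333 after Benjamini-Hochberg adjustment over the 10 receptors. Groups were apart on this scale for 71.2% of all genes, since the macrophage reads themselves differed between the groups, so that 3 of 10 receptors is a lower share than that of all genes.

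**Figure D4:**
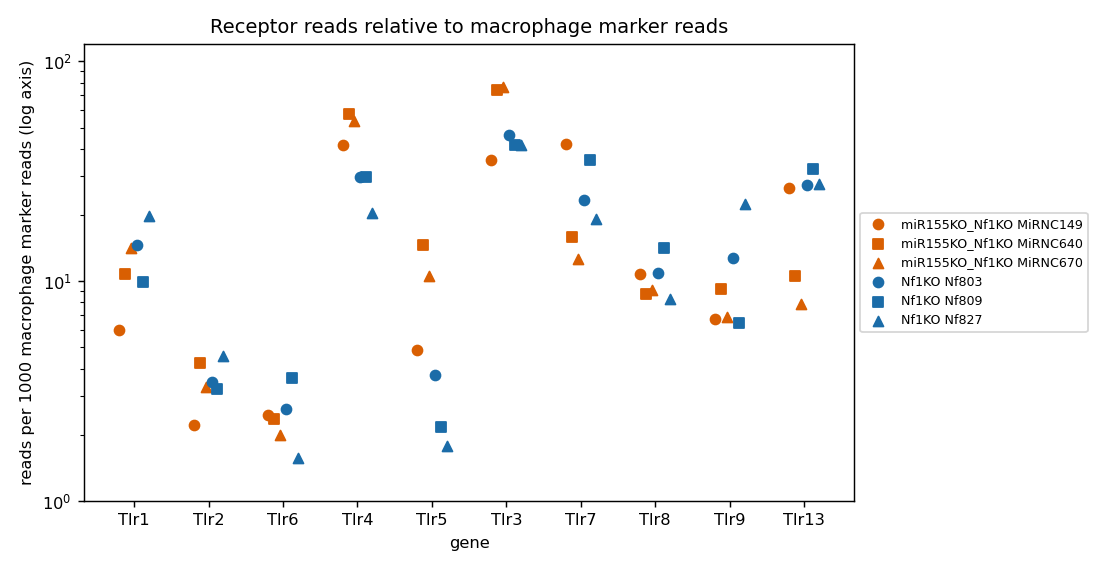
Receptor reads per 1000 reads of the 15 macrophage markers in the same tumour, on a log axis, 1 point per tumour, orange for miR155KO_Nf1KO and blue for Nf1KO. The colours are apart for Tlr4, Tlr5 and Tlr13 and mixed for the other 7 receptors.

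The direction on this scale depended on the reference. Per read of Ptprc alone, the log2 ratio of the group means was positive for all 10 receptors, from 0.16 for Tlr13 to 2.98 for Tlr5, while per macrophage marker read it was positive for Tlr3, Tlr4 and Tlr5 and negative for the other 7. Per read of the dendritic cell list it was positive for 9 receptors, from 0.25 for Tlr9 to 2.81 for Tlr5, and -0.02 for Tlr13. Most reads of that list came from Cd74 and H2-Ab1. Tlr3, Tlr4 and Tlr5 were positive under all 3 references, although for Tlr3 the groups overlapped per macrophage marker read, with tumour MiRNC149 at 35.4 below every Nf1KO tumour (41.6 to 46.2, exact two-sided permutation p = 0.4).

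The genes whose profile over the 6 tumours was most like the mean of the receptors were Mrc1, the mannose receptor of tissue macrophages (root mean square difference 0.05 in centred log2 CPM), Aebp1, a matrix-associated protein (0.07), Arhgap22 (0.09), Tnfrsf1b, a receptor for tumour necrosis factor (0.12), and Lilra5 (0.13). They were taken from 12965 genes with a mean log2 CPM of at least 1. Mrc1 was at 109, 64.5 and 65.0 CPM in tumours MiRNC149, MiRNC640 and MiRNC670, and at 230, 156 and 279 CPM in tumours Nf803, Nf809 and Nf827.

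Genes listed as partners that let the receptors fold, move or bind ligand were lower in part. Of 12 tested coreceptors and chaperones 3 fell and none rose, with a median log2 fold change of -0.78. Beside this count, edgeR called 4.74% of all genes lower and 5.22% higher. Unc93b1, which carries the endosomal receptors from the endoplasmic reticulum, had 334, 236 and 177 reads in the knockout tumours and 651, 523 and 1273 in the Nf1KO tumours and fell by 1.68 on the log2 scale (SE 0.37, edgeR adjusted p = 0.0355). Cd180, a receptor relative that modulates Tlr4 in B cells and myeloid cells, fell by 2.78 (SE 0.53), and Cnpy3, a folding chaperone of several receptors, by 0.70 (SE 0.16). Lrrc32, which is in this list although no role as a receptor partner is shown here, had a log2 fold change of -1.04. It was not called (edgeR adjusted p = 0.0887).

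The counts of adaptors and kinases called stand beside the 4.74% of all genes called lower and 5.22% called higher by edgeR. Among 6 adaptors Pik3ap1, which links the receptors to PI3-kinase, fell by 2.94 (SE 0.59, edgeR adjusted p = 0.0293). The shared adaptor Myd88, a known miR-155 target in the literature, had 85, 47 and 71 reads against 110, 116 and 153, with a log2 fold change of -0.83 (edgeR adjusted p = 0.143). No match to the seed was found in its annotated 3′ UTR of 987 bases. Ticam2, the adaptor of Tlr4 in endosomes, and Sarm1, an adaptor relative abundant in neurons, were at -2.19 and 1.04 and were not called (edgeR adjusted p = 0.0686 and 0.105). Of 18 kinases and ubiquitin ligases downstream 0 were called by edgeR, with a median of -0.10. DESeq2 called 2 lower and 1 higher, beside 1441 lower and 1477 higher of all 17388 genes. An unadjusted edgeR p under 0.05 was found for 3 of the 18, beside 4163 of all 15604 genes. The most marked were Ube2n (0.51, edgeR adjusted p = 0.0664), Ikbkb (-0.51, 0.0757), Btk (-1.70, 0.113) and Irak4 (-0.65, 0.233). Tab2, with an 8-base site, had a mean of 363 ± 46.5 CPM in the knockout tumours and 370 ± 38.1 CPM in the others (SD, n = 3 each), a log2 fold change of -0.03 with SE 0.14. Ikbke was at -0.71 (SE 0.47, edgeR adjusted p = 0.393).

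Among 10 transcription factors at the end of the pathway 3 fell: Irf8 by 2.07 (SE 0.39) and Irf5 by 2.01 (SE 0.39), regulators of myeloid cells, and Rel, an NF-kB subunit of leukocytes, by 0.98 (SE 0.24). Irf7 missed the threshold (-1.95, edgeR adjusted p = 0.056), and the broadly expressed Rela was at -0.15 with SE 0.15. Of 14 tested inhibitors Inpp5d alone was called. The counts of both lists stand beside the 4.74% of all genes called lower by edgeR. Inpp5d, the lipid phosphatase SHIP1 and a known miR-155 target, holds the 8-base site shown above and was at 24.1, 9.52 and 9.03 CPM in the knockout tumours and 46.0, 33.8 and 62.2 CPM in the Nf1KO tumours. It fell by 1.73 (SE 0.43, edgeR adjusted p = 0.0478). Tnip3, with 18, 9 and 18 reads against 274, 9 and 340, was low in tumour Nf809 as well (-3.75, edgeR adjusted p = 0.0813). Its 3′ UTR held the 8-base site at 2 places. Atf3 and Trafd1 were at -0.63 and -0.58 (edgeR adjusted p = 0.168 and 0.17). Socs1 had 1 to 7 reads in every tumour and was not tested. Of 11 tested pathway genes with a seed match, 10 had a negative log2 fold change and 1 a positive one, beside 79 negative of all 87 tested pathway genes, so the count is not particular to genes with a match.

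Many transcripts that the receptors induce had few reads in these tumours. Of 25 listed genes 14 had enough reads for the test, 3 of them fell, and the median of the 14 was -1.58. Beside this count, 4.74% of all genes were called lower by edgeR. The costimulatory genes Cd80 and Cd86 fell by 2.59 (SE 0.30) and 1.91 (SE 0.44), and Nfkbiz, an NF-kB cofactor, by 0.96 (SE 0.24). Cd80 had 112, 50 and 51 reads in the knockout tumours and 377, 469 and 477 in the Nf1KO tumours. The cytokine gene Il1b had 29, 23 and 20 reads against 137, 42 and 319 and missed the threshold (-2.75, edgeR adjusted p = 0.0529). Il6 had at most 6 reads in any tumour and Ifnb1 at most 1.

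**Figure D5:**
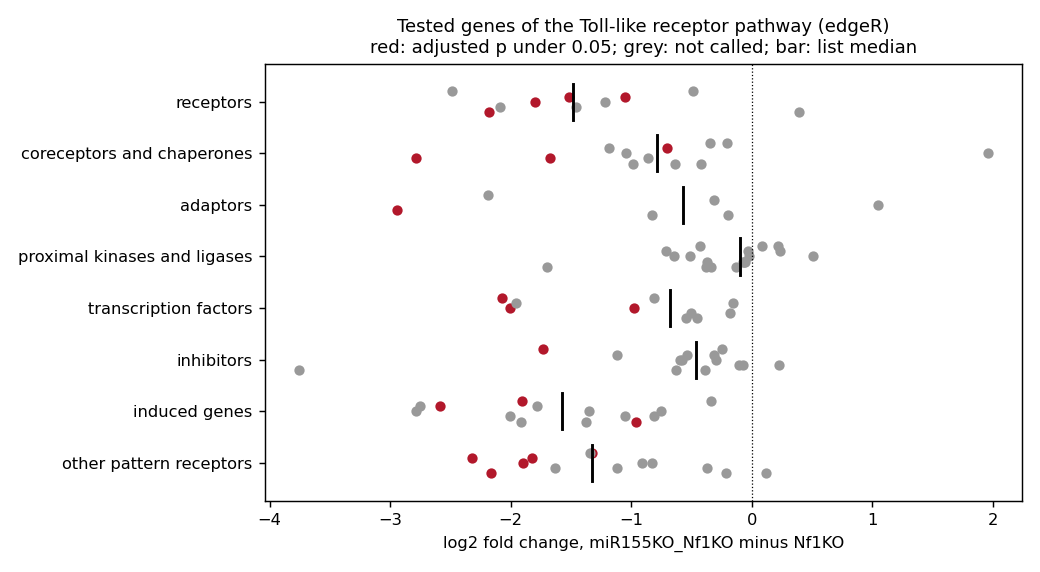
Log2 fold change of each tested gene, miR155KO_Nf1KO minus Nf1KO (horizontal axis), for the receptors and 7 lists of the pathway (vertical axis). Red marks genes with an adjusted p under 0.05, the bar is the list median, and the kinases and ligases lie nearest to 0.

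Other sensors of microbial molecules and foreign nucleic acid were lower in part. Of 13 tested genes 5 fell, with a median of -1.33. Ifih1, the cytoplasmic RNA sensor MDA5, fell from 98.6 ± 22.5 to 39.3 ± 4.58 CPM (SD, n = 3 each, log2 fold change -1.33, SE 0.19). Dhx58 fell by 1.82 (SE 0.30), the inflammasome gene Nlrc4 by 2.32 (SE 0.43), Tmem173, which encodes STING, by 1.90 (SE 0.40) and Aim2, a DNA sensor named after its value was seen, by 2.16 (SE 0.47). Over the 7 pathway lists together, 16 of 87 tested genes were lower and none higher by edgeR, 18.4% against 4.74% of all genes lower, and the median log2 fold change was -0.65. Without tumours MiRNC670, Nf803 or Nf827 edgeR called none of them, and without tumour MiRNC640 1.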

How the data were processed

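Raw counts of reads for each gene symbol in each tumour were taken from the authors' deposited table. The tools HISAT2 2.0.5 and featureCounts 1.5.2 and the build mm10 are named in the submitters' processing notes. How multimapping reads and strand were handled, and which gene models were counted, is not given in the sources used here, so close copies and antisense genes are uncertain. Libraries were made with a Nextera XT kit, per the labels' protocols.

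Groups and tumour numbers came from the sample titles. The test was run in edgeR 4.0.16 under R 4.3.3 (filterByExpr with minimum count 10 and minimum total 15, TMM scaling, quasi-likelihood test), fitted over all 15604 genes that passed. All 10 receptors passed. Standard errors and 95% intervals are those implied by the F statistic and are not adjusted for the number of genes. Replicate tumours differed by at least 23.2 times the Poisson variance, which is more than counting noise, so no library was counted as deposited again. This does not show that they came from separate animals. Alternatives were DESeq2 1.42.0, voom in limma 3.58.1, other scalings and filters, sex as a covariate, and leaving out tumours. Exact permutation tests were used for ratios to marker reads. Of the gene symbols, 23376 matched GENCODE M21. The edgeR step was tested on simulated data.

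The receptors and gene lists were chosen with earlier results of these data known. Named genes are the receptors, the 4 genes of each pathway list with the smallest p, Myd88, Tab2, Ikbke, Inpp5d and Socs1 as literature targets, Mir155hg, the marker lists and the 5 genes nearest in profile. Genes named beyond this rule, Aim2, Ptprc, Rela, Il6, Ifnb1, Ms4a1, Pax5, Tlr11 and Tlr12, were chosen after their values were seen.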

Additional observations from a re-analysis of the deposited data

Results flagged for a closer look

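The value of Tlr7 in tumour MiRNC149, the only female knockout tumour, set it apart in a model with sex. In an edgeR model with a sex by group term, added after the values were seen, the log2 fold change of males was 2.71 lower than that of females (term -2.71, SE 0.30, adjusted p = 0.0436), and 0.295% of all genes passed the same test in either direction. It rests on 1 female and 2 male knockout tumours, with 2 female and 1 male Nf1KO tumours, so it restates the value of MiRNC149 and does not show a difference between the sexes: sex and any other property of that tumour cannot be told apart. The same term was -2.14 for Tlr13 (edgeR adjusted p = 0.101) and -1.24 for Tlr8 (edgeR adjusted p = 0.307), which did not pass.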

How the results depend on the processing

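The 9 negative receptor fold changes stayed negative and that of Tlr5 positive in all 20 alternative fits, whereas the calls moved. Among fits of all 6 tumours, the receptors called were 2 with sex as a covariate, 3 with voom (Tlr3, Tlr8 and Tlr13), 6 with DESeq2 and 4 or 5 with other scalings and filters. Tlr9 passed by edgeR with upper quartile scaling (adjusted p = 0.0496), without a low-count filter (0.0422) and by DESeq2 (1.76e-04). DESeq2 called 2918 of 17388 genes in all and 32 of 93 genes of the pathway lists. Leaving out 1 tumour, edgeR called 0 to 4 receptors, 0 to 25 pathway genes and 0 to 2242 genes in all, with 3240 to 3335 at an unadjusted p under 0.05 in the 3 fits with no call. With DESeq2, added after the data were seen, the ranges were 5 to 9, 20 to 40 and 1876 to 3304, with 16456 to 17301 genes tested. Without tumour MiRNC149 DESeq2 called 9 receptors, 34 pathway genes and 3186 of 16479 genes in all. Without the most muscle-rich tumour of each group (MiRNC670 and Nf809) edgeR called 3 receptors, among them Tlr9, and not Tlr2 (adjusted p = 0.0535) or Tlr8 (0.142). Receptors whose groups were apart per macrophage marker read numbered 3, with 5 against Ptprc alone and 3 to 5 with 1 tumour left out. The share of all genes apart was computed only for the macrophage markers with all 6 tumours (71.2%). The other counts have no such share beside them and are not read as a result about the receptors. No receptor held the 8-base site either. Counting error limits Tlr2 and Tlr6, with 17 to 49 reads per knockout tumour. No paired analysis was possible because the groups share no tumour numbers.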

Other observations

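Mice have further receptors of this family, Tlr11 and Tlr12, which recognise profilin of protozoan parasites from endosomes. In the knockout tumours Tlr11 counted 36, 48 and 52 reads, and in the Nf1KO tumours 98, 120 and 278. Its groups did not overlap, and it missed the threshold with a log2 fold change of -1.78 (SE 0.46, edgeR adjusted p = 0.0546). Tlr12 had 5, 7 and 0 reads against 29, 14 and 37, again without overlap and without a call (-2.70, SE 0.91, edgeR adjusted p = 0.11).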
